A study of Mus musculus with 8 samples.

Results

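The neuropeptide precursor genes described here are 10 named genes, Sst, Vip, Npy, Cck, Tac1, Penk, Pdyn, Cort, Adcyap1 and Scg2, out of 23523 genes measured in mouse glioblastoma and normal mouse brain. They are taken by name. RNA was sequenced from 5 glioblastomas and 3 samples of normal brain. The tumours had been raised with a lentiviral vector that expressed HrasG12V, an oncogenic form of the Ras GTPase, together with a short hairpin RNA against p53. They were taken when the mice reached the clinical endpoint, after surrounding brain had been cut away from the green fluorescent tumour tissue under a microscope. The sources used here do not give mouse strain, age, the promoter of the vector, the cells it entered, the treatment of the mice behind the normal samples or the brain region of those samples. The samples are called tumours 1 to 5 and brains 1 to 3.

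A neuropeptide is made as a long precursor protein that enters dense-core granules, where prohormone convertases cut it and other enzymes trim and amidate the pieces before they are released. In the forebrain, Sst, Vip, Npy, Cort and, in part, Cck and Tac1 are known as genes of distinct classes of inhibitory interneurons. Penk, Pdyn and Tac1 are strong in projection neurons of the striatum, and Cck and Adcyap1 are also made by excitatory neurons. Scg2 encodes secretogranin II, a granin protein that packs dense-core granules of neurons and endocrine cells and is itself cut into peptides.

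Libraries held between 5490351 and 15564280 fragments assigned to genes. Levels are given as CPM, fragment counts brought to a common library total with TMM scaling factors, or, where genes are compared with each other, as FPKM, which also divides by transcript length. Hras stood at 413 ± 75.1 CPM in tumours and 99.5 ± 4.61 CPM in brains (SD, n = 5 and 3), and Trp53, the gene of p53, at 4.07 ± 1.51 and 5.62 ± 1.38 CPM. Of 14641 genes with enough fragments to test, 33.9% were lower and 37.1% higher in the tumours at an adjusted p below 0.05 (edgeR quasi-likelihood test, Benjamini-Hochberg adjustment over all tested genes), so that a call in either direction was made for 71% of genes. Hras was higher (log2 fold change 2.05 ± 0.19, SE; edgeR adjusted p = 1.9e-05). Trp53 did not pass (-0.46 ± 0.35, SE; edgeR adjusted p = 0.26). Whether each sample came from its own animal is not labelled, so the p-values measure the spread between these samples, which may be technical.

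Most of the precursor genes fell in the tumours, and the sizes of the falls were very unequal. All 10 were tested, 7 were lower and 3 (Npy, Scg2 and Penk) did not pass, against the 33.9% of all tested genes that were lower. None was higher in edgeR, also without adjustment (0 genes at an unadjusted p below 0.05) and in DESeq2 (0 genes). The median log2 fold change was -2.81 over the 10 genes and 0.06 over all tested genes. Cort, with 1 fragment in all tumours together, had enough fragments to be tested only through the brains and so could not have been called higher. For 8 of the 10 genes every tumour lay below every brain, as it did for 34.5% of all tested genes, and for Npy and Scg2 the groups overlapped. No gene of the 10 had every tumour above every brain, a pattern of 36.1% of tested genes. Because the samples were pieces of tissue, fewer cells of a type and less RNA per cell cannot be told apart.

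**Figure D1:**
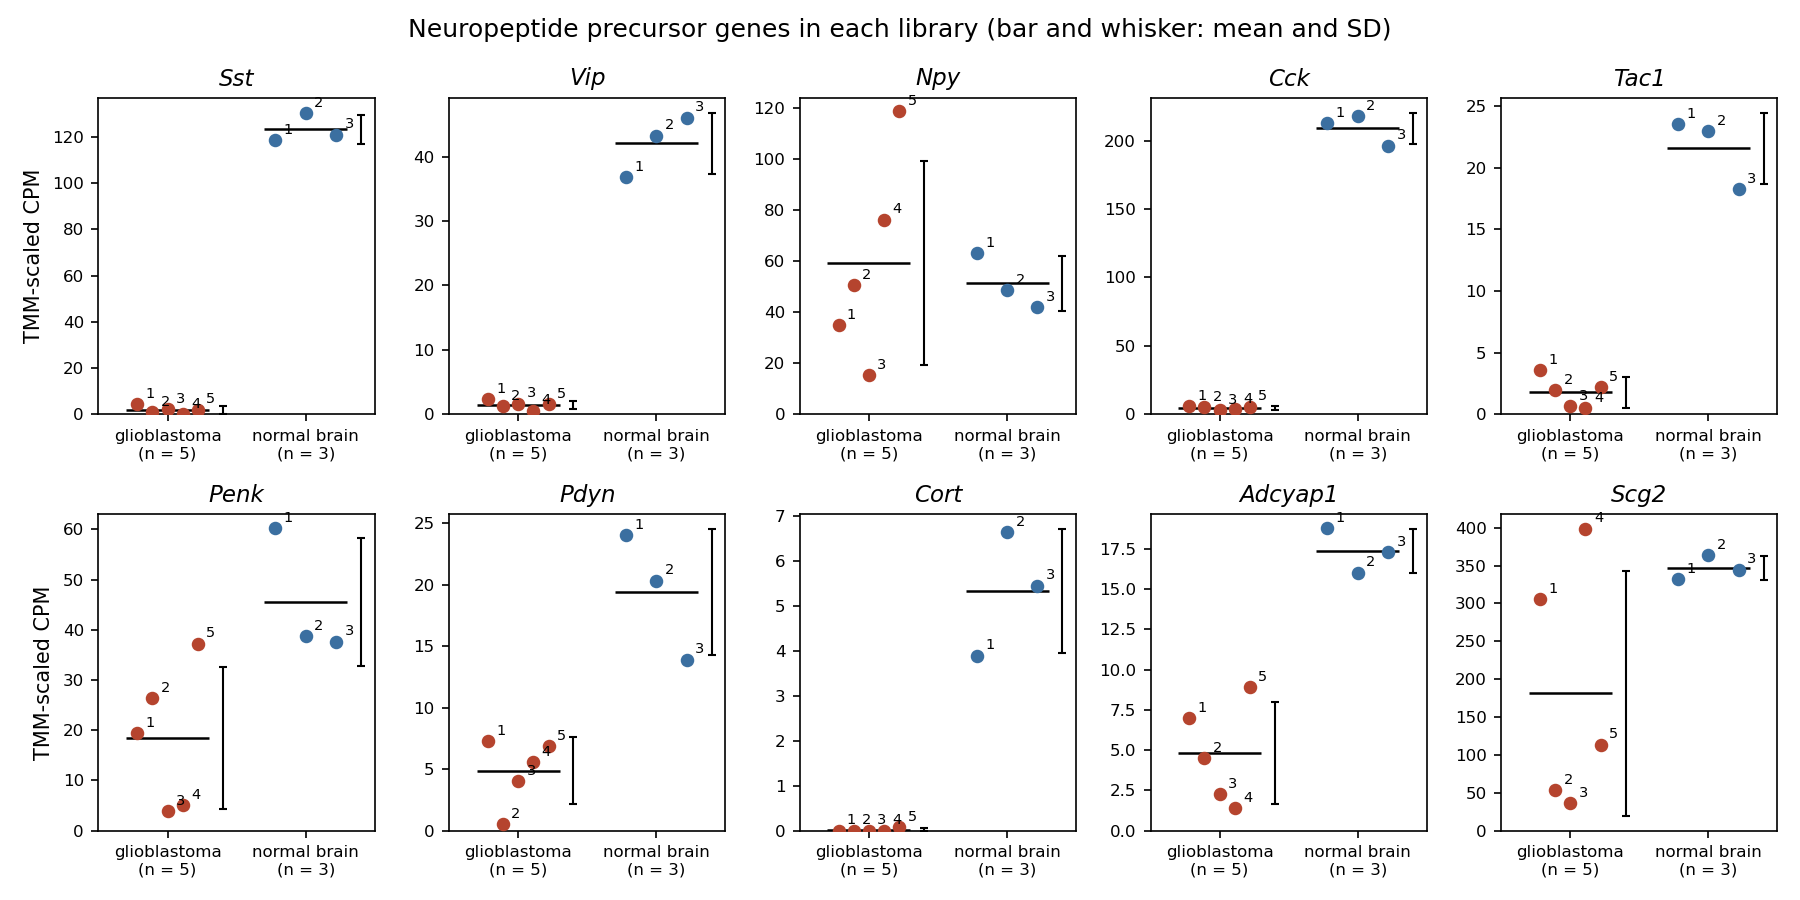
TMM-scaled CPM of the 10 neuropeptide precursor genes in each library, glioblastomas in red and normal brains in blue, numbered by replicate; horizontal lines are means and whiskers SDs, cut off at 0. The tumours lie below all brains for 8 genes and overlap the brains for Npy and Scg2.

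The sequences just upstream of the genes are shown for 3 of the genes that fell together (Sst, Vip and Cck) and for 2 that did not pass (Scg2 and Npy). They are windows of 300 bases, from 250 bases before to 50 bases after the annotated start of the gene, from RefSeq on GRCm38.p6, at chr16:23890795-23891094 (minus strand), chr10:5638968-5639267 (plus strand), chr9:121495645-121495944 (minus strand), chr1:79439977-79440276 (minus strand) and chr6:49822460-49822759 (plus strand). Capitals mark TGACG on either strand, the half-site of the cyclic AMP response element bound by CREB.
Sst: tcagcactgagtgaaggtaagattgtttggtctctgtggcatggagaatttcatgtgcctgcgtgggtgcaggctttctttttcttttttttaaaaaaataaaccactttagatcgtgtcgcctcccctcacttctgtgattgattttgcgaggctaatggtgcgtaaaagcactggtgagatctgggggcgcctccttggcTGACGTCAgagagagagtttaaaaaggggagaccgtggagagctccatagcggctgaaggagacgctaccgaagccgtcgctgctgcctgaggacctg
Vip: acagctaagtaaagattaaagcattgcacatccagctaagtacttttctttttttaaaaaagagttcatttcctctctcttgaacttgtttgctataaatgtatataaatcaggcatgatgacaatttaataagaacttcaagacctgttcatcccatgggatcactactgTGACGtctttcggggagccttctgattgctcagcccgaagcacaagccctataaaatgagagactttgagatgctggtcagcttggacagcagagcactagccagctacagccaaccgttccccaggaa
Cck: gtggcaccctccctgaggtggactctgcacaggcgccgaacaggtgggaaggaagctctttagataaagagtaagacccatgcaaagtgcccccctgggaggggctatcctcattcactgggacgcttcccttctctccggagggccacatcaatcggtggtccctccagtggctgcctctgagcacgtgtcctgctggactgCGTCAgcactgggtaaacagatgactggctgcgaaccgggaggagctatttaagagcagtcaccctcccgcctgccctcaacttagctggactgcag
Scg2: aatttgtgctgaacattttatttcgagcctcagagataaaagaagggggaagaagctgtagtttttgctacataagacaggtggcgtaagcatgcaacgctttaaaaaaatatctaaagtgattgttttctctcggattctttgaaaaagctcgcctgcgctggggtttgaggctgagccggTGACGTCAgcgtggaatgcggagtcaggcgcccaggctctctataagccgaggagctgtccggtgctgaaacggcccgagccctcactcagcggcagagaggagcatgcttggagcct
Npy: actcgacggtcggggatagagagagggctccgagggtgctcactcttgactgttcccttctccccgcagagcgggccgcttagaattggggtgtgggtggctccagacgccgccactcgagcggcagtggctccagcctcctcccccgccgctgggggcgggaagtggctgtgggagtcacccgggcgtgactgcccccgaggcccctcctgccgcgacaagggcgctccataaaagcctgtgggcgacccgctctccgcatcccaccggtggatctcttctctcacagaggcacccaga
RefSeq windows were matched for 9 of the 10 genes, with Penk the gene that was not matched. The half-site TGACG was found in the windows of 7 genes (Sst, Vip, Cck, Scg2, Cort, Tac1 and Adcyap1), while 20.8% of all 32851 windows hold it. The full element TGACGTCA, which contains the half-site on both strands, was found in 2 genes, 48 bases upstream of the start in Sst and 68 bases upstream in Scg2, and in 1.79% of all windows. Sst and Scg2 share the element but differ in the changes given in the paragraphs on each. A match of letters is a description of the window and not a binding site, and no match in Npy or Pdyn says only that these letters are not in their windows.

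Somatostatin and cortistatin are closely related peptides that act on the same receptors, and their genes were among those with the largest falls. Sst had 4.50, 0.902, 2.14, 0.116 and 2.02 CPM in tumours 1 to 5, against 119, 130 and 121 CPM in brains 1 to 3. The brains were nearly level, and the highest tumour stayed far below the lowest brain. Sst differed by -6.07 ± 0.70 on the log2 scale (SE; adjusted p by edgeR 7.7e-05). Among the tumours Sst was the most uneven of the called precursor genes that were detected in every tumour, with a highest level 38.6 times the lowest. That lowest level, in tumour 4, was 2 fragments, with a 95% Poisson interval from counting alone of 0.0141 to 0.421 CPM. The ratio and the rank rest on those 2 fragments. Cort had 0 fragments in tumours 1 to 4 and 1 fragment in tumour 5, against 23, 46 and 40 fragments in brains 1 to 3. A count of 0 allows up to between 0.175 and 0.541 CPM in tumours 1 to 4 (3 fragments per library), while the brains stood at 3.89, 6.64 and 5.45 CPM. Summed over the groups, the brain level of Cort was 267 times that of the tumours (95% Poisson interval from counting alone 48.0 to 10556), or 89.1 times the level that 3 fragments in the 5 tumours would give. The fitted log2 fold change of -7.28 (edgeR adjusted p = 1.3e-05) rests on that 1 fragment, and without tumour 5 it was -8.45.

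Cholecystokinin and vasoactive intestinal peptide fell nearly as far and more evenly. Cck, the most abundant of the 10 genes in brain by FPKM, had 5.74, 5.23, 2.77, 3.67 and 5.66 CPM in tumours 1 to 5, against 213, 218 and 196 CPM in brains 1 to 3. No other of the 10 genes combined such a large difference with such a small spread in both groups. It differed by -5.51 ± 0.24 on the log2 scale (SE; adjusted p by edgeR 5.7e-07). Vip had 2.33, 1.26, 1.64, 0.582 and 1.54 CPM in the tumours, against 36.9, 43.3 and 46.1 CPM in the brains. It differed by -4.88 ± 0.35 on the log2 scale (SE; adjusted p by edgeR 5.9e-06). The groups were far apart for both genes, and tumour 4 held the lowest level of Vip and of Sst.

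Tac1, the precursor of substance P and neurokinin A, fell by 3.65 ± 0.54 on the log2 scale (SE; adjusted p by edgeR 0.00033). It had 3.57, 1.98, 0.630, 0.524 and 2.18 CPM in tumours 1 to 5, against 23.5, 22.9 and 18.3 CPM in brains 1 to 3. Tumours 3 and 4 were lowest. A fitted fall of 3 or more on the log2 scale, which Cort, Sst, Cck, Vip and Tac1 reached, was found for 9.56% of all tested genes.

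Pdyn and Adcyap1 fell by less. Pdyn, the precursor of the dynorphins, opioid peptides that act on the kappa receptor, had 7.29, 0.541, 4.03, 5.59 and 6.87 CPM in tumours 1 to 5, against 24.0, 20.3 and 13.9 CPM in brains 1 to 3. Tumour 2 was low, with 3 fragments and a 95% Poisson interval from counting alone of 0.112 to 1.58 CPM. The other 4 tumours lay between 4.03 and 7.29 CPM. Pdyn differed by -1.97 ± 0.55 on the log2 scale (SE; adjusted p by edgeR 0.011). Adcyap1 encodes PACAP, a relative of VIP. It had 6.98, 4.51, 2.27, 1.40 and 8.89 CPM in the tumours, against 18.8, 16.0 and 17.3 CPM in the brains, with a fitted difference of -1.86 ± 0.53 on the log2 scale (SE; adjusted p by edgeR 0.012). The groups did not overlap for either gene. A long non-coding RNA gene overlaps Cck and another overlaps Adcyap1 in the RefSeq annotation, and the sources used here give no strand setting for the counts, so fragments of the 2 genes may include some of these transcripts.

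**Figure D2:**
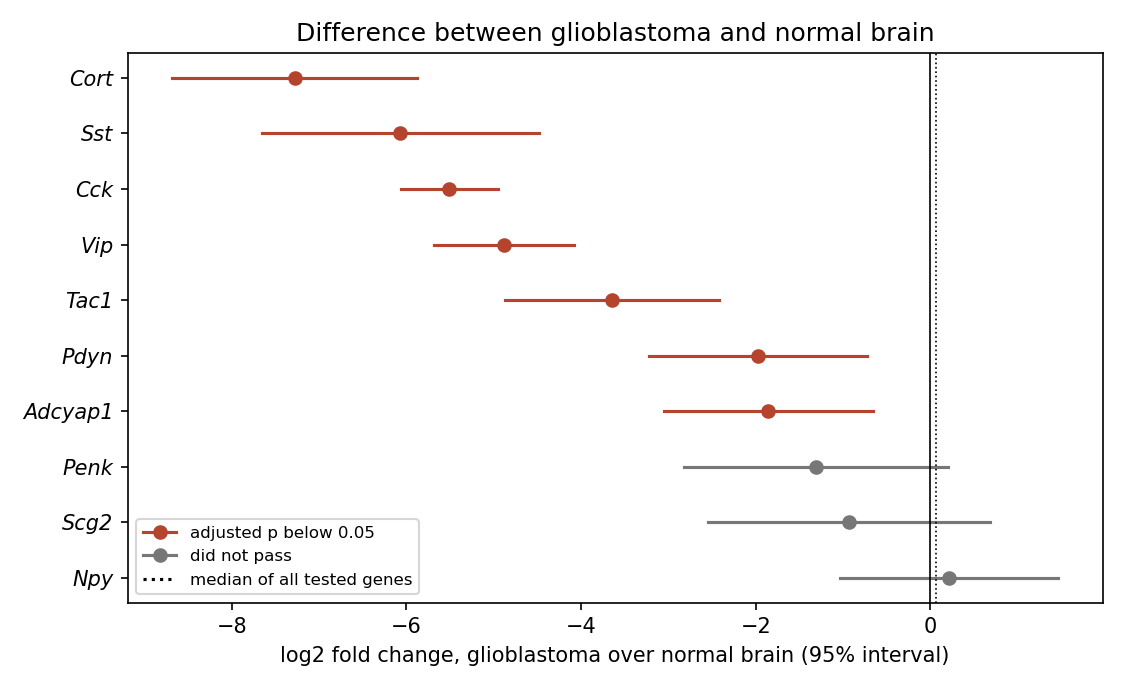
Log2 fold change of each precursor gene, glioblastoma over normal brain, with its 95% interval; red marks an adjusted p below 0.05, grey genes did not pass, and the dotted line is the median of all tested genes. Values run from -7.28 for Cort, a fit to 1 tumour fragment, to 0.21 for Npy.

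Penk, the precursor of the enkephalins, was lower in every tumour than in any brain but did not pass the test. It had 19.4, 26.3, 3.91, 5.12 and 37.2 CPM in tumours 1 to 5, against 60.2, 38.8 and 37.6 CPM in brains 1 to 3. Tumour 5 lay just below brains 2 and 3, whereas tumours 3 and 4 were far below. Its fitted difference was -1.31 ± 0.66 on the log2 scale (SE; adjusted p by edgeR 0.10) and its 95% interval ran between -2.82 and 0.20. Without tumour 5 it was -1.75 and passed (edgeR adjusted p = 0.043), which raised the number of lower genes to 8.

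Npy, the precursor of neuropeptide Y, showed no detectable difference. It had 35.1, 50.7, 15.4, 76.3 and 119 CPM in tumours 1 to 5, against 63.3, 48.6 and 42.1 CPM in brains 1 to 3. Tumours 4 and 5 exceeded every brain, tumour 2 lay among the brains, and tumours 1 and 3 were below. Its fitted difference was 0.21 ± 0.55 on the log2 scale (SE; adjusted p by edgeR 0.74) and its 95% interval ran between -1.04 and 1.46. The interval thus includes both a fall and a rise by 2-fold, but not the falls fitted for Sst, Cck, Vip or Tac1. Its sign changed without tumour 5 (-0.20).

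Scg2 differed between tumours more than between groups. It had 306, 53.0, 36.7, 399 and 113 CPM in tumours 1 to 5, against 332, 364 and 345 CPM in brains 1 to 3. Tumour 4 exceeded every brain, tumour 1 came close to them, and tumours 2 and 3 were far below, a span of 10.9 times from the highest to the lowest tumour. The brains spanned 1.10 times. Its fitted difference was -0.93 ± 0.71 on the log2 scale (SE; adjusted p by edgeR 0.26), with bounds of -2.54 and 0.68 at 95%. The SD of log2 CPM was larger among tumours than among brains for 9 of the 10 genes, as it was for 85.1% of all tested genes.

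Because these genes differ in length, their order was read from FPKM, which the authors had scaled between libraries. In brain Cck was highest at 404 ± 21.0 FPKM, followed by Sst at 293 ± 15.5, Scg2 at 144 ± 7.11 and Npy at 141 ± 29.2 FPKM (SD, n = 3), and the ranges of Scg2 and Npy overlapped. Penk (35.6 FPKM), Vip (30.1), Tac1 (24.5) and Cort (17.0) formed a middle group in which each range overlapped that of the next gene. Adcyap1 and Pdyn were lowest, at 8.70 and 8.25 FPKM, with overlapping ranges. In the tumours Npy came first at 161 ± 107 FPKM and Scg2 after it at 74.2 ± 65.7 FPKM (SD, n = 5). They were followed by Penk (14.3 FPKM), Cck (8.85), Sst (4.57), Adcyap1 (2.39), Pdyn (2.07), Tac1 (2.01) and Vip (1.04). Every one of these neighbours overlapped over the tumours, and only Cort, at 0.0504 FPKM, was separate from the gene above it.

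The mix of precursor transcripts was thus different. The 10 genes summed to 271, 204, 75.3, 381 and 421 FPKM in tumours 1 to 5, against 1132, 1143 and 1044 FPKM in brains 1 to 3. Npy and Scg2 made up between 76.0% and 96.0% of that sum in the tumours, against 24.9% to 27.4% in the brains. Cck and Sst made up between 1.88% and 13.8% in the tumours, against 61.0% to 64.1% in the brains.

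**Figure D3:**
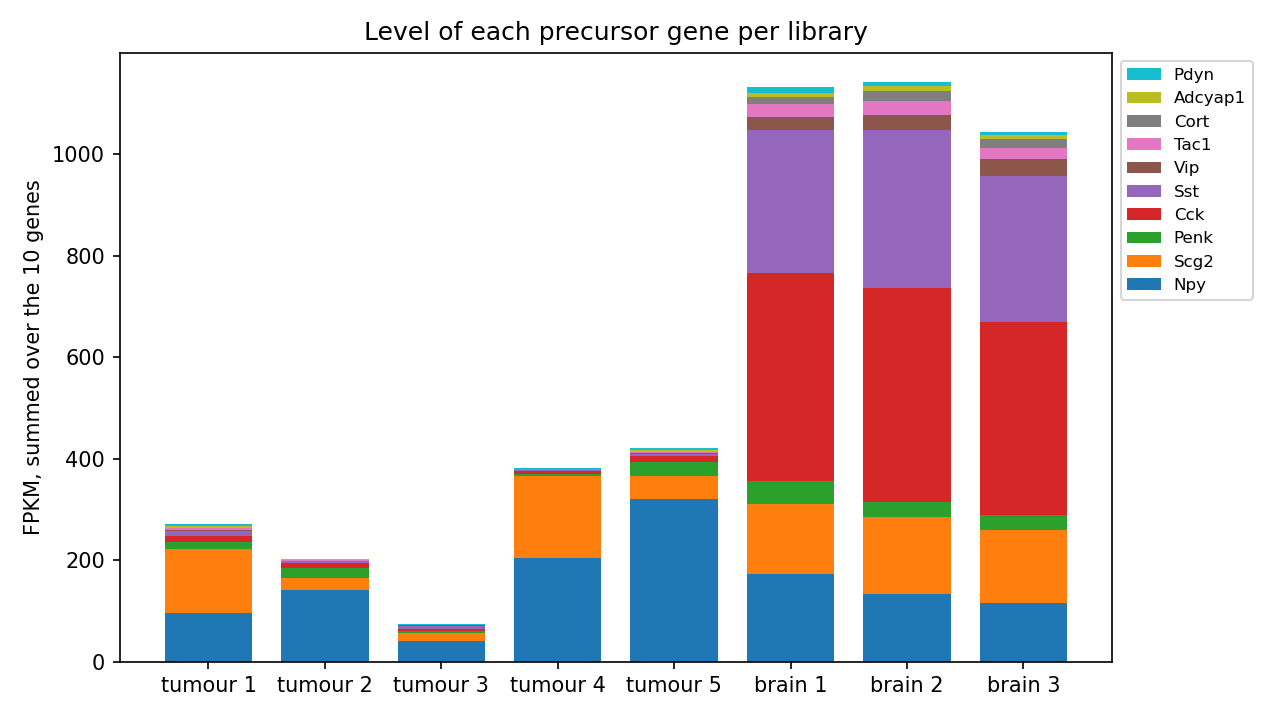
FPKM of the 10 precursor genes stacked per library, the 5 tumours to the left of the 3 brains. The brains sum to between 1044 and 1143 FPKM, mostly Cck and Sst, and the tumours to between 75.3 and 421 FPKM, mostly Npy and Scg2.

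Between brains, the 95% Poisson intervals from counting alone lay apart for at least 1 pair of brains in 5 of the 10 genes. These were Penk, Npy, Pdyn, Scg2 and Cck. The share of all tested genes for which this holds was not counted. Penk had 54.1 to 66.8 CPM in brain 1, 34.3 to 43.7 in brain 2 and 33.3 to 42.3 in brain 3. Npy was likewise highest in brain 1, at 57.0 to 70.0 CPM against 43.6 to 54.1 and 37.6 to 47.1 CPM. Pdyn was lower in brain 3, at 11.3 to 16.9 CPM against 20.2 to 28.3 in brain 1 and 17.1 to 24.0 in brain 2. The gaps were smaller for Scg2, at 318 to 347 CPM in brain 1 and 350 to 379 CPM in brain 2, and for Cck, where brains 2 and 3 were narrowly apart. With 1 library per brain there is no test of these differences.

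Markers of brain regions gave the following levels beside them. The 8 cortical and hippocampal genes were all detected in every brain and summed to 1368, 1478 and 1386 CPM in brains 1 to 3. The 8 striatal genes summed to 383, 254 and 242 CPM, highest in the brain with the most Penk. The largest part of that sum was Pde10a, at 188, 117 and 131 CPM in brains 1 to 3. Ppp1r1b, a signalling protein of striatal neurons, had 42.8, 26.0 and 20.9 CPM. Drd1 alone of the striatal genes was not highest in brain 1, at 38.6, 44.4 and 38.2 CPM. The hypothalamic list summed to 2.71, 5.05 and 4.09 CPM, and of its 8 genes Oxt, Avp and Hcrt had 0 fragments in all brains, while Trh had 10, 4 and 11 fragments and Pomc 6, 28 and 8. The cerebellar and hindbrain list summed to 17.9, 14.9 and 24.5 CPM, mostly from Cbln1 (6.43, 11.5 and 14.2 CPM) and Zic1 (10.7, 2.02 and 9.82 CPM), and its granule cell gene Gabra6 had 0, 1 and 1 fragments. The thalamic and midbrain list summed to 223, 111 and 169 CPM. Of 6 pituitary hormone genes, which include Pomc, all were detected in brain 2, among them Prl with 119 and Gh with 44 fragments, against 1 and 0 fragments of Prl and none of Gh in brains 1 and 3. Brain 1 stood apart in choroid plexus genes, with 1424 CPM over 5 genes against 46.2 and 57.9 CPM, and in 5 oligodendrocyte genes, with 5522 CPM against 2831 and 2825 CPM. The part of region in the levels of the precursor genes was not tested. Leaving out any 1 of the 8 libraries left all 7 calls in place.

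Most general neuronal genes were lower too. Of 16 such genes, all detected in every library, 13 were lower, against 33.9% of all tested genes, and 3 did not pass. Over the 16 the median log2 fold change was -4.26. Their levels summed to between 852 and 1162 CPM in the tumours, against 10576 to 11602 CPM in the brains. The 3 that did not pass were Nefl, Nefm and Stmn2, and for each the groups overlapped. Nefl averaged 302 CPM in tumours and 456 CPM in brains, Nefm 71.9 and 101 CPM, and Stmn2 167 and 241 CPM. In tumour 2, Nefl had 440 and Stmn2 349 of the summed 1162 CPM. Snap25, a protein of synaptic vesicle fusion, had 46.5, 52.1, 37.9, 31.3 and 32.2 CPM in tumours 1 to 5, against 3408, 2541 and 2469 CPM in brains 1 to 3. Slc32a1, the vesicular transporter that defines inhibitory neurons, had between 0.233 and 0.931 CPM in the tumours, against 22.4 to 31.6 CPM in the brains. The part of these neurons in the falls was not tested.

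Scg2 was compared with genes of the granule and of glial precursors, picked for display after their values were seen. Syt4, a synaptotagmin found on dense-core granules, had 714, 24.2, 46.9, 1462 and 117 CPM in tumours 1 to 5, against 342, 366 and 369 CPM in brains 1 to 3. The granin Scg3 had 72.7, 34.8, 23.2, 140 and 32.5 CPM in the tumours, against 240, 263 and 225 CPM in the brains. Of 12 granule genes other than Scg2, 5 had tumour 4 highest and tumour 1 next, Syt4 and Scg3 among them. The granins Chga and Chgb were instead lowest in tumour 4, at 1.11 and 6.35 CPM. Tumours 4 and 1 were the highest for Scg2, Syt4 and Scg3 alike. They were also highest for Olig1, a transcription factor gene of the oligodendrocyte lineage, at 93.1, 5.59, 4.16, 266 and 5.98 CPM in tumours 1 to 5, against 67.8, 45.0 and 43.1 CPM in the brains. The 4 oligodendrocyte precursor genes together stood at 938, 146, 255, 1723 and 383 CPM in the tumours, against 188, 178 and 188 CPM in the brains. In the tumours most of that sum was Pdgfra, at 790, 133, 241, 1338 and 359 CPM. Pdgfra was called higher in the tumours, and the other 3 did not pass. This order of the tumours was not limited to that lineage. Tumour 4 was highest and tumour 1 next for all 4 of these genes, 4 of 6 astrocyte genes and 4 of 16 neuronal genes. The order held for 5 of 15 other precursors tested and 4 of 15 receptors tested. Of 6 striatal genes tested it held for 3, and of 6 macrophage and microglia genes for 0. How many of all tested genes share this order was not counted. The astrocyte glutamate transporter gene Slc1a3 had 339, 185, 111, 760 and 172 CPM in tumours 1 to 5, against 712, 897 and 901 CPM in brains 1 to 3. Map2, a neuronal microtubule protein gene, had 243, 61.7, 53.3, 440 and 91.3 CPM in the tumours, against 1293, 1520 and 1580 CPM in the brains. The part of any of these cells in the level of Scg2 was not tested. Npy and Penk had another order, with tumour 5 highest.

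**Figure D4:**
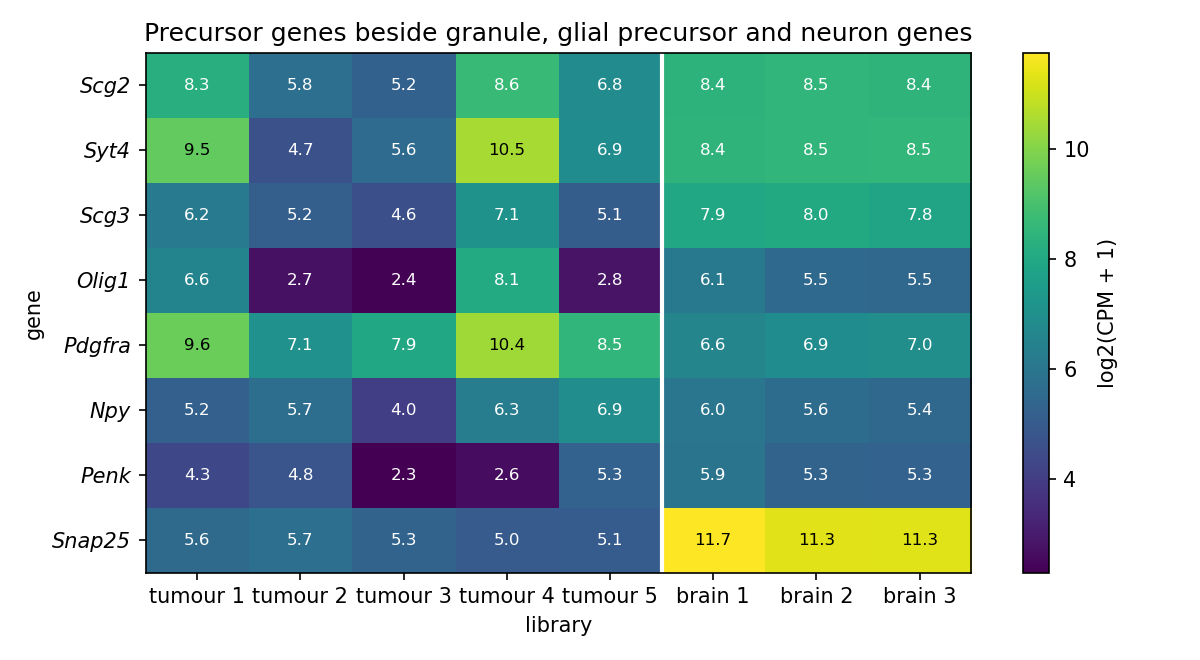
Levels, as log2(CPM + 1), of 3 precursor genes (Scg2, Npy, Penk) beside the granule genes Syt4 and Scg3, the glial precursor genes Olig1 and Pdgfra and the neuronal gene Snap25, tumours to the left of brains. Scg2, Syt4, Scg3, Olig1 and Pdgfra are highest among tumours in tumours 4 and 1, whereas Npy and Penk are highest in tumour 5. The genes shown were picked after their values were seen, and the granins Chga and Chgb, not shown, were lowest in tumour 4.

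The genes whose profile over the 8 libraries lay nearest to each precursor gene were named by distance, the root of the summed squared differences of log2 CPM centred on each gene's mean. For Scg2 they were 1500009L16Rik and Brinp3, at distances of 0.56 and 0.59. For Cck the nearest was Syp (0.47), which encodes a synaptic vesicle protein, and for Vip they were the potassium channel gene Kcnk9 and the activity-dependent factor Npas4 (0.54 and 0.58). For Cort they were Olfm1 and Ptprn2 (0.43 and 0.45), where the prior count of 2 in log2 CPM draws low levels together. Sst had Rph3a and Dlx6os1 at 1.22 and 1.34, Tac1 had Fgf13 and Vwc2l at 0.97 and 1.21, Pdyn had Ubxn11 and Zfp354b at 0.91 and 1.09, and Adcyap1 had Skida1 and Krt12 at 0.92 and 0.95. Penk (Wnt3 and Pcdhgb6, 1.56 and 1.75) and Npy (Rgl3 and Sod3, 1.23 and 1.24) had their nearest profiles at the distances given.

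The other genes of dense-core granules were lower almost throughout. Of 12, 11 were lower and none higher (edgeR; 0 higher at an unadjusted p below 0.05 and 0 in DESeq2), with a median log2 fold change of -2.62, and Syt4 did not pass. Among all tested genes, 33.9% were lower and 37.1% higher. The granin Chgb had 15.4, 15.3, 14.2, 6.35 and 11.7 CPM in tumours 1 to 5, against 628, 462 and 517 CPM in brains 1 to 3, with a fitted difference of -5.42 ± 0.30 on the log2 scale (SE; adjusted p by edgeR 1.6e-06). Chga, the third classical granin beside Chgb and Scg2, fell by 5.06 ± 0.45 on the log2 scale. Scg2 was thus the one of the 3 that did not pass.

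Of 12 enzymes that process the precursors, 11 were tested, 4 were lower and 3 higher, with a median log2 fold change of -0.32. These shares are near the 33.9% lower and 37.1% higher among all tested genes. Pcsk2 and Pcsk1, the convertases of the regulated secretory pathway, fell, with log2 fold changes of -5.56 ± 0.28 and -4.05 ± 0.48. The convertase Pcsk5 and the carboxypeptidase Cpe were the other 2 that fell (-3.40 ± 0.48 and -1.37 ± 0.12). Qpct, which cyclises amino-terminal glutamine, rose to 200, 169, 104, 200 and 104 CPM in tumours 1 to 5, against 14.9, 15.4 and 18.3 CPM in brains 1 to 3 (log2 fold change 3.26 ± 0.31; edgeR adjusted p = 2.4e-05). Furin and Pcsk7, convertases of the constitutive pathway, were the other 2 that rose. Furin averaged 65.8 ± 37.7 CPM in tumours and 13.4 ± 0.807 CPM in brains (SD, n = 5 and 3), and Pcsk7 rose by 0.97 ± 0.22 on the log2 scale. Pam, the peptide-amidating enzyme, did not pass, at 319 ± 140 CPM in tumours and 397 ± 64.3 CPM in brains (SD, n = 5 and 3).

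Of 12 peptidases, 5 were higher and 1 lower, with a median log2 fold change of 0.29. The share higher is near the 37.1% of all tested genes, and the share lower is below their 33.9%. Without brain 2 the number higher was 3. Anpep, an aminopeptidase that degrades enkephalins, had 7.76, 11.4, 13.6, 4.95 and 16.7 CPM in tumours 1 to 5, against 1.01, 0.721 and 1.64 CPM in brains 1 to 3, and had enough fragments to be tested only through the tumours. Prep rose by 1.16 ± 0.25 on the log2 scale. Mme, which encodes neprilysin, fell by 1.14 ± 0.41 on the log2 scale (SE; adjusted p by edgeR 0.033), and its call was lost without tumour 3 (adjusted p = 0.055), brain 1 (adjusted p = 0.085) or brain 3 (adjusted p = 0.12).

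Of 22 receptor genes, 7 had too few fragments and 15 were tested. The 22 were listed as receptors of these peptides, but the list also holds Oprl1, the receptor of nociceptin. The precursor gene of nociceptin, Pnoc, is not among the 10. Of the 15, 14 were lower and none higher (edgeR; 0 higher at an unadjusted p below 0.05 and 0 in DESeq2). Among all tested genes, 33.9% were lower and 37.1% higher. The median log2 fold change of the tested receptor genes was -4.48. Of the 14 lower genes, 8 had enough fragments only through the brains and so could not be called higher, and the other 6 had enough through either group. Among these 6 was Oprl1, with 0 fragments in tumours 2 and 5. Its summed counts were not whole numbers in 6 libraries before rounding. Sstr3, a somatostatin receptor, had 1.09, 0.180, 0.378, 0.408 and 0.808 CPM in tumours 1 to 5, against 30.8, 32.9 and 34.2 CPM in brains 1 to 3 (log2 fold change -5.80 ± 0.37; edgeR adjusted p = 3.3e-06). The kappa opioid receptor gene Oprk1, whose ligand comes from Pdyn, fell by 5.64 ± 0.76 on the log2 scale (6.33 without tumour 5). Receptors of neuropeptide Y were low although Npy was not. Npy1r had 3.57, 1.44, 2.02, 1.57 and 3.47 CPM in the tumours, against 33.8, 43.7 and 43.1 CPM in the brains, and Npy2r and Npy5r fell too, with log2 fold changes of -4.62 ± 0.39 and -5.32 ± 0.48. Tacr1, the receptor of substance P, was the 1 that did not pass, at 1.24, 11.7, 3.65, 0.641 and 2.18 CPM in tumours and 1.35, 1.44 and 2.86 CPM in brains.

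Of 53 other precursor genes, 38 had too few fragments to test, 5 were higher, 4 lower and 6 did not pass, with a median log2 fold change of -0.33. Over the 15 tested, these shares are near or below the 37.1% higher and 33.9% lower among all tested genes. Nppb, the precursor of B-type natriuretic peptide, had 36.8, 24.2, 11.8, 43.7 and 29.4 CPM in tumours 1 to 5, against 0 fragments in the 3 brains, and stood at least 215-fold higher against a floor of 3 fragments over the brains. Ucn2, the precursor of urocortin 2, had 9, 3, 5, 40 and 17 fragments in the tumours and 0 in the brains, and stood at least 10.1-fold higher. Named because the count was small, the other 3 that rose were Gal, Calcb and Adm. Gal, the precursor of galanin, had 4.50, 4.51, 1.26, 1.86 and 5.41 CPM in the tumours, against 2, 0 and 0 fragments in the brains (33.2 times higher over the groups; 95% Poisson interval from counting alone 9.20 to 274). Calcb, which encodes a calcitonin gene-related peptide, rose by 5.25 ± 1.07 on the log2 scale (6.34 without brain 3), and Adm, the precursor of adrenomedullin, by 4.27 ± 0.44. All 5 had enough fragments to be tested only through the tumours, and such genes could not be called lower. Pnoc, the precursor of nociceptin, Cartpt, Crh and Nts were the 4 that fell, at -4.50 ± 0.53, -2.56 ± 0.54, -2.26 ± 0.60 (-2.91 without tumour 4) and -2.06 ± 0.56. All but Nts were testable only through the brains, and Nts overlapped between the groups, with 2.03 CPM in brain 1 against 13.7 and 12.4 CPM in brains 2 and 3.

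**Figure D5:**
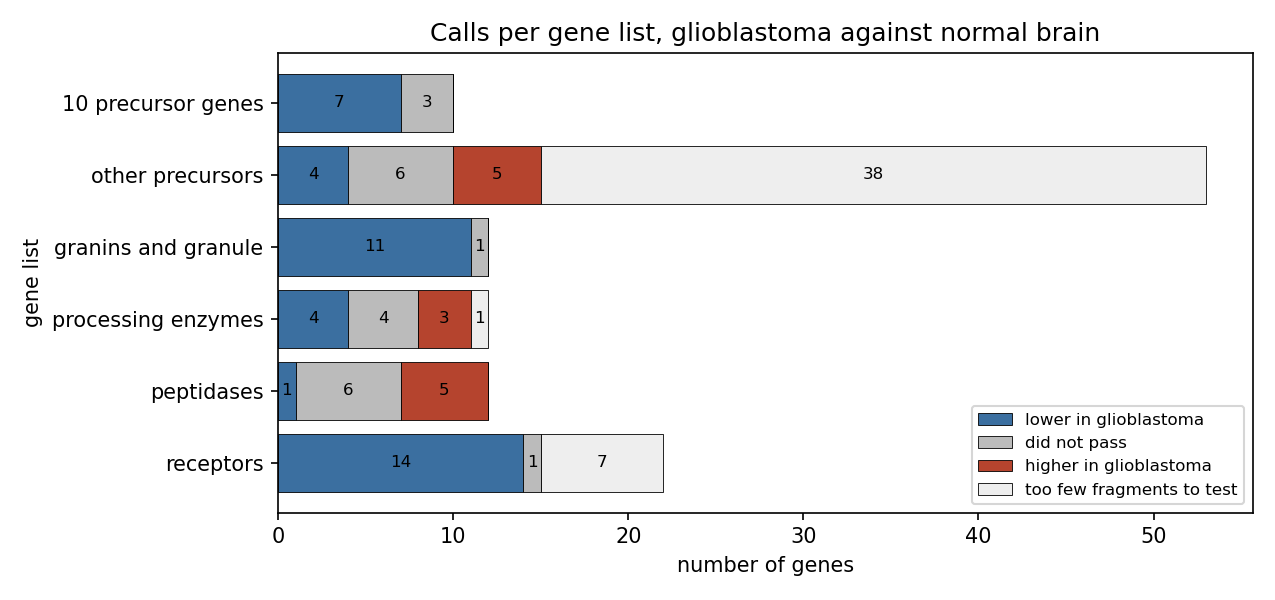
Number of genes lower, not passing, higher and too low to test in the 10 precursor genes and 5 further lists, glioblastoma against normal brain, by edgeR at an adjusted p of 0.05. Granule and receptor genes hold 11 and 14 lower genes and 0 higher, and the other precursors 4 lower and 5 higher. Among all tested genes, 33.9% were lower and 37.1% higher.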

How the data were processed

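Per the labels' protocols, RNA came from RNeasy columns with a DNase step, and the TruSeq RNA kit was used for the libraries. STAR 2.3.0e, Cuffdiff 2.1.1 and the mm9 build are named, without roles, in the submitters' processing notes. The sources used here do not name the annotation, any filter or a strand setting. The authors deposited 1 table with estimated counts of fragments for 30967 RefSeq accessions and each library, not normalised per the file headers, and FPKM values, which they had scaled between libraries. Sample names were tied to libraries by the block at the top of that table.

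Accessions were given symbols from RefSeq (30474) or GENCODE (178), added up within each gene and then rounded, which left 23523 features. The sums of all 10 members were whole within 0.01 in every library, and Cck and Pdyn have 2 accessions each.

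The 5 tumours were compared with the 3 brains by edgeR 4.0.16 (TMM, default filter on low counts, robust quasi-likelihood test, Benjamini-Hochberg adjustment over 14641 genes, threshold 0.05). Standard errors came from the F statistic. On simulated data with 200 changed genes among 14318 tested for this comparison, 86% of 4-fold and 23% of 2-fold changes were recovered, and 1.80% of calls were false. That setting is unlike these data, where a call was made for 71% of genes, so the shares may not hold here. Poisson intervals and floors of 3 fragments cover counting error only.

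Alternatives were DESeq2 1.42.0, other scaling factors and filters, limma 3.58.1 on log2(FPKM + 1) and log2(FPKM + 0.1), each library left out, and single accessions. Named genes were all members; per further list the 2 called genes that changed most in the more common direction and the 1 that changed most the opposite way; and the 2 nearest profiles per member, of which 1 is not reported here. The members and lists were chosen with earlier results of these data known. Motifs were searched on both strands of the RefSeq promoter windows, and no coordinates other than those windows are given because the builds differ. Calculations used R 4.3.3, pandas 2.3.3, scipy 1.17.1 and matplotlib 3.10.9.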

Additional observations from a re-analysis of the deposited data

Results flagged for a closer look

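In the 5 tumours, Cort was flagged because 1 tumour stood apart from the others: tumour 5 had 0.0808 CPM, which is 1 fragment, and the other 4 had 0. This was the only flag among 23 genes examined in the tumours, and chance flags about 1 in 20 such groups.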

How the results depend on the processing

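All 7 called members kept their direction and call under each scaling, filter and test and with each library left out, except that Cort was not tested with at least 5 CPM in 3 samples and that the 2 accessions of Pdyn, each by itself, did not pass, at -1.44 (edgeR adjusted p = 0.43) and -2.34 (edgeR adjusted p = 0.16). The cause was not tested, here or for the changes that follow. The 10 precursor genes held 8 lower genes with limma on log2(FPKM + 1) and without tumour 5, and 6 with the filter that left out Cort. Penk passed with limma on log2(FPKM + 1), at -1.63 (adjusted p = 0.049), and ranged from -1.75 without tumour 5 to -1.04 without tumour 3. Npy was reversed with limma, at -0.092 on log2(FPKM + 1) and -0.095 on log2(FPKM + 0.1), and ranged from -0.20 to 0.46 with 1 library left out, never past the threshold. Rgl3 was reversed with log2(FPKM + 0.1), at -0.017. Among peptidases the number lower was 0 with upper quartile factors, 0 with library size only, 2 with limma on log2(FPKM + 1) and from 0 to 2 with 1 library left out, and the number higher went from 3 to 5. Among other precursors the number higher was 9 without a filter and 3 with at least 5 CPM in 3 samples, and the number lower was 0 with that stricter filter, under which fewer genes were tested. The median log2 fold change of all genes was 0.06 with TMM, 0.18 with upper quartile factors and 0.20 with library size only. Leaving out tumour 4 gave larger falls of Scg5 (-3.75), Vgf (-3.09), Pcsk1n (-2.78), Adcyap1r1 (-3.57) and Cckbr (-4.71). Without brain 1 no Gal fragment was left in the brains, and its fitted change then depends on the prior count and is not given. Ide lost its call without brain 2 (adjusted p = 0.059). Nln lost its call without brain 1, brain 2, tumour 2, tumour 3 or tumour 5 (adjusted p from 0.062 to 0.13). Low depth limits Cort and the genes with few fragments in 1 group. No paired analysis was possible because no label ties a tumour to a brain. The samples' labels carry no replicate numbers, and those in the deposited table and in this text only tell the libraries of a group apart.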

Other observations

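Markers of cells other than neurons also differed between the groups. Among all tested genes, 33.9% were lower and 37.1% higher. All 6 macrophage and microglia genes were higher, summing to between 863 and 1910 CPM in the tumours, against 152 to 169 CPM in the brains. All 4 endothelial genes were higher, at 116 to 304 CPM in the tumours against 54.2 to 63.8 CPM in the brains. All 5 oligodendrocyte genes were lower, at 191 to 627 CPM in the tumours against 2825 to 5522 CPM in the brains. Of 6 astrocyte genes 3 were lower and 3 did not pass, with 895 to 2518 CPM in the tumours against 4571 to 5047 CPM in the brains. That sum rests largely on the transporter gene Slc1a2, at 193 ± 127 CPM in tumours and 3186 ± 186 CPM in brains (SD, n = 5 and 3). The 3 that did not pass had higher means in the tumours, Gja1 with 290 and 206 CPM, Gfap with 416 and 248 CPM and Aldh1l1 with 98.0 and 86.6 CPM in tumours and brains. These calls are from edgeR at an adjusted p of 0.05. Their part in the levels of the precursor genes was not tested.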
